A study of Homo sapiens with 8 samples.

Results

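SR proteins and hnRNPs are the RNA-binding proteins that decide which exons of a pre-mRNA are kept, and their genes were followed here in Huh7 cells, an established human hepatocellular carcinoma line, with UPF1 depleted or overexpressed. The genes were chosen by symbol: those named SRSF with a number, those whose symbol begins with HNRNP, and a short list of related regulators (TRA2A, TRA2B, PTBP1, PTBP2, PTBP3, TIA1, TIAL1, CLK1, CLK4, U2AF1, U2AF2, RBM39, SNRPB, SFPQ and RBFOX2). This gave 77 of the 17076 genes in the tables. They comprised 14 SR protein genes, 2 kinases that phosphorylate SR proteins, 21 hnRNP genes, 3 genes of the PTB family, 2 of the TIA family, 4 genes acting at the 3′ splice site or in the snRNP core, 2 other regulators, 28 hnRNP pseudogenes and 1 readthrough gene that joins HNRNPUL2 to its neighbour. Without the pseudogenes and the readthrough gene, 48 remained.

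The study compared RNA from 4 groups of 2 libraries each, all of Huh7 cells. The siUPF1 group had received siRNA against UPF1 and the siControl group a control siRNA, whereas the MYC-UPF1 group had received a plasmid for MYC-tagged UPF1 and the MYC group the vector with the tag alone. Poly(A) RNA was sequenced, and each gene has a single FPKM value per library, that is, fragments scaled to transcript length and library size. The sources used here do not name the UPF1 siRNA given to the cells that were sequenced. The labels do not say whether the libraries of a group came from separate cultures, so the p-values measure only the spread between these libraries.

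SR proteins bind enhancer sequences in exons through their RNA recognition motifs and recruit the splicing machinery through their arginine and serine rich domain. hnRNPs coat the nascent transcript and often silence splice sites. Many genes of both kinds limit their own level: an excess of the protein leads to inclusion of a "poison" exon carrying a premature stop codon, and the resulting transcript is degraded by nonsense-mediated mRNA decay (NMD), the pathway in which the RNA helicase UPF1 is the central factor.

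Exons of this kind are present in the gene annotation. They were taken from transcripts already annotated as NMD targets, so their stop codons follow from that choice, not from these data. In GENCODE release 44 on GRCh37 (hg19), 23 of the 48 genes had a transcript annotated as an NMD target with a cassette exon in which the reading frame reaches a stop codon. Shown here, on the strand of the transcript, is each exon from its 5′ end up to the stop codon, which is in capitals. The genes are the markers of the group with such an exon (SRSF3, TRA2A and HNRNPH1) and other SR protein genes. Among the latter are the SR protein genes at either end of the response to depletion. SRSF3 and SRSF7 also have other annotated exons of this kind, and a single exon is shown for each gene. In TRA2A the exon lies on the minus strand of chromosome 7, is 301 bases long, and is shown at chr7:23561908-23562051. In TRA2B it lies on the minus strand, is 276 bases long, and is shown at chr3:185649560-185649640. In SRSF3 it lies on the plus strand, is 456 bases long, and is shown at chr6:36567598-36567631. In SRSF7 it lies on the minus strand, is 449 bases long, and is shown at chr2:38976461-38976488. In SRSF6 it lies on the plus strand, is 268 bases long, and is shown at chr20:42087793-42087944. In SRSF4 it lies on the minus strand, is 175 bases long, and is shown at chr1:29492521-29492576. In HNRNPH1 it lies on the minus strand, is 134 bases long, and is shown at chr5:179048952-179048977.
TRA2A: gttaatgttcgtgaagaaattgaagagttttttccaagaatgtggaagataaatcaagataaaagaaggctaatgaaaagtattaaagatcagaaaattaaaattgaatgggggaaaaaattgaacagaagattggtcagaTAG
TRA2B: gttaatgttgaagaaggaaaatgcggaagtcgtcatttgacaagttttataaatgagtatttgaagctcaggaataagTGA
SRSF3: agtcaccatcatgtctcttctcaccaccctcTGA
SRSF7: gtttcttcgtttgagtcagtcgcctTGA
SRSF6: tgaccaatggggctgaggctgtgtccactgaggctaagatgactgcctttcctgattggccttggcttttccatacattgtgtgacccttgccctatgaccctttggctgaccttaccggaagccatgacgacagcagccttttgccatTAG
SRSF4: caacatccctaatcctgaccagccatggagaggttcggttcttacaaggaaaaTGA
HNRNPH1: cgttggtaacggaaagcgacctgTAA
The stop codon lies upstream of the last exon junction of an annotated NMD transcript, by 534 bases in SRSF6 and 1015 bases in TRA2B. In HNRNPH1 the distance is 587 or 108 bases, since the exon is in more than a single NMD transcript. The deposited FPKM values are totals per gene, so transcripts with and without the exon were not separated, and the values that follow are for all transcripts of a gene together.

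The checks of the labels and cells were made on values outside the group. UPF1 was at 44.5 and 47.4 FPKM in the siControl libraries and at 20.7 and 21.9 FPKM in the siUPF1 libraries (log2 fold change -1.07, SE 0.0928, limma adjusted p = 0.0308). It was at 45.1 and 57.4 FPKM with MYC and at 2835 and 2484 FPKM with MYC-UPF1 (log2 fold change 5.68, SE 0.110, limma adjusted p = 8.91e-09). All 12 hepatocyte markers were present, with AFP between 11093 and 12505 FPKM. Of 9 markers of other cell types 4 were in the tables (CD68, COL3A1, PECAM1 and EPCAM, summing to between 34.3 and 39.0 FPKM). Most of this sum was EPCAM, at 29.9 to 34.1 FPKM, while CD68, the next highest, reached 3.84 FPKM. Summed FPKM ranged from 403902 to 455592 per library and the read depth is unknown. In bulk RNA of this kind, fewer expressing cells and less RNA per cell cannot be told apart.

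The splicing factor genes were among the most abundant transcripts of these cells. The 48 genes had a median of 57.9 FPKM over the 8 libraries, against 3.98 FPKM for all genes in the tables. HNRNPA2B1, an hnRNP also known as a reader of RNA modification, was highest at a mean of 351 FPKM, followed by HNRNPA1, a splicing silencer, at 314 FPKM. SNRPB, a core protein of the spliceosomal snRNPs, at 298 FPKM and HNRNPH1, which binds runs of G, at 297 FPKM came next, and the ranges of HNRNPA1, SNRPB and HNRNPH1 over the 8 libraries overlapped. SRSF2 was the most abundant SR protein gene at 166 FPKM, and SRSF12 was the lowest of the 48 genes at 0.955 FPKM. By role, the median was 81.0 FPKM for the hnRNP genes and 48.5 FPKM for the SR protein genes. The 28 pseudogenes had a median of 0.257 FPKM, and the lowest, HNRNPRP1, HNRNPA1P15 and HNRNPA1P6, stayed at or under 0.036 FPKM in every library. Reads of pseudogenes and their parent genes are nearly identical, so how they were divided between them is uncertain.

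**Figure D1:**
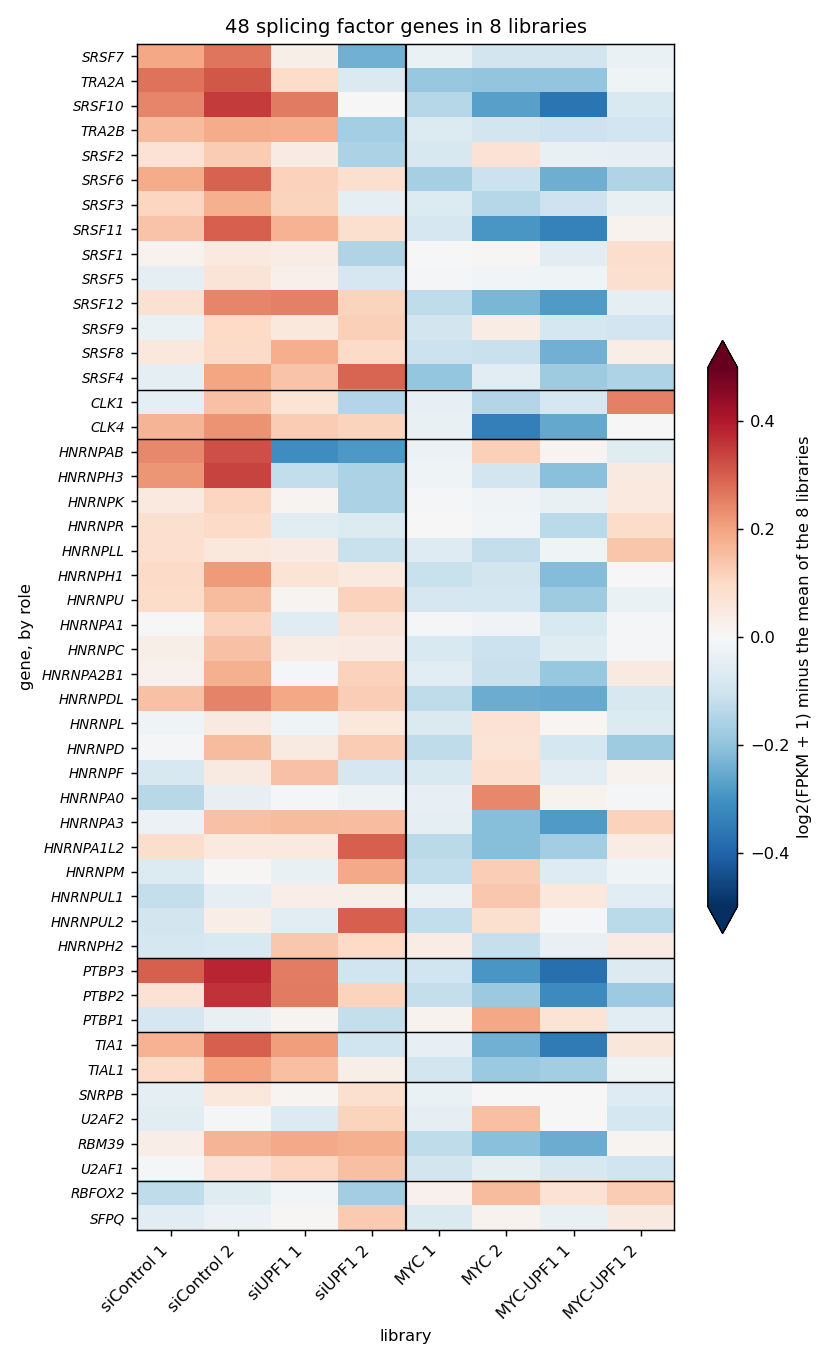
Level of 48 splicing factor genes (rows, grouped by role and separated by horizontal lines) in each of 8 libraries (columns), as log2(FPKM + 1) minus the mean of the gene over the 8 libraries, with red above and blue below the mean and the scale capped at -0.5 and 0.5. In 6 of the 14 SR protein genes all plasmid libraries lie below all siRNA libraries, and in the others they overlap. The dark red of HNRNPAB and HNRNPH3 is limited to the siControl libraries.

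Depletion of UPF1 left the level of most splicing factor genes close to that of siControl, and of the 48 genes only HNRNPAB, HNRNPH3, SRSF7 and TRA2A passed the test, all lower in siUPF1. Genes with a mean of at least 0.5 FPKM over the 4 libraries were tested with limma on log2(FPKM + 1), which understates the change of low genes. All 48 genes, the readthrough gene and 12 pseudogenes passed this minimum (61 members), and the 16 members under it were pseudogenes. At an unadjusted p of 0.05, 5 of the 61 were called, 4 lower and 1 higher, against 21.5% of all 13535 genes tested (16.0% higher and 5.51% lower). None passed a Benjamini-Hochberg adjusted p of 0.05, which 0.0369% of all genes did. The split of calls over all genes depended on scaling, with 2162 higher and 746 lower as deposited, 1417 and 1408 after quantile normalization, and 1602 and 1271 after median centring. The count of 5 members became 19 of 62 without siUPF1 replicate 1, when 43.7% of all genes were called, and 2 of 62 without siControl replicate 2, when 12.6% were.

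HNRNPAB, which binds AU-rich and other RNA and takes part in mRNA transport and editing complexes, showed the largest change of any member. It lies on chr5:177631534-177638164 on the plus strand. Its level was 157 and 167 FPKM in the siControl libraries and 107 and 109 FPKM in the siUPF1 libraries. The pairs were far apart, and both siUPF1 libraries were also lower than the 4 plasmid libraries, which lay between 128 and 145 FPKM. The log2 fold change was -0.58 (SE 0.0906, limma adjusted p = 0.0645). HNRNPAB passed the unadjusted threshold under every alternative tried, with a limma adjusted p of up to 0.193. It passed the adjusted threshold with only genes of at least 5 FPKM, when 4% of all genes passed, and with all 8 libraries in a fit (2.72%). The same held with the trend of GC content and length removed (2.05%), against 0.0369% of all genes in the main fit. HNRNPAB did not pass the adjusted threshold with a replicate block added to that removal (limma adjusted p = 0.0571) or without either siControl library. With 1 library left out, its log2 fold change was -0.62 to -0.54.

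HNRNPH3, a relative of HNRNPH1 that binds runs of G, was at 60.0 and 65.2 FPKM in siControl and at 47.1 and 45.9 FPKM in siUPF1. The groups did not overlap, and the siUPF1 values lay among those of the plasmid libraries, 44.4 to 53.1 FPKM. The log2 fold change was -0.42 (SE 0.0933, limma adjusted p = 0.0920). Without siControl replicate 2, it was -0.36 and no longer passed (limma adjusted p = 0.427).

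SRSF7 and TRA2A were the SR protein genes called lower. SRSF7, an SR protein that also promotes mRNA export, was at 56.0 and 59.1 FPKM in siControl and at 49.9 and 41.3 FPKM in siUPF1 (log2 fold change -0.34, SE 0.115, limma adjusted p = 0.174). TRA2A, a sequence-specific enhancer of exon inclusion that acts with SR proteins, was at 50.9 and 52.3 FPKM in siControl and at 44.8 and 39.9 FPKM in siUPF1 (log2 fold change -0.28, SE 0.0981, limma adjusted p = 0.180). In both genes siUPF1 replicate 2 lay further from siControl than replicate 1. Neither gene passed the threshold without siControl replicate 1, siControl replicate 2 or siUPF1 replicate 2, when the log2 fold change of SRSF7 was as small as -0.20 and that of TRA2A -0.20.

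The other 12 SR protein genes did not pass the test. SRSF2, which recognises exonic enhancers and acts in both splicing and transcription, was at 175 and 181 FPKM in siControl and at 171 and 149 FPKM in siUPF1 (log2 fold change -0.16, 95% interval -0.40 to 0.09). SRSF3, the smallest of the classical SR proteins, was at 61.7 and 64.7 FPKM in siControl and at 61.8 and 55.4 FPKM in siUPF1 (log2 fold change -0.11, 95% interval -0.34 to 0.12). The groups were apart for SRSF2 and overlapped for SRSF3. SRSF4, with the highest log2 fold change among SR protein genes, was at 34.2 and 40.7 FPKM in siControl and at 39.2 and 43.5 FPKM in siUPF1 (0.14, 95% interval -0.13 to 0.42). Of all 14, 10 had a log2 fold change below 0 and the median was -0.10, beside a median of 0.06 for all genes. That median was -0.14 with median centring, -0.13 with quantile normalization and -0.03 once the trend with GC content and length was removed.

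CLK1 and CLK4, kinases that phosphorylate SR proteins, had log2 fold changes of -0.09 and -0.08 in depletion. CLK1 was at 16.9 and 19.4 FPKM in siControl and at 18.4 and 15.7 FPKM in siUPF1, so its groups overlapped.

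Among the hnRNP genes, 19 of 21 did not pass the test in depletion. HNRNPH1 was at 316 and 343 FPKM in siControl and at 310 and 306 FPKM in siUPF1 (log2 fold change -0.10, 95% interval -0.32 to 0.13). HNRNPH2, its X-linked relative, had the highest value among hnRNP genes, at 16.0 and 16.1 FPKM in siControl and at 18.8 and 18.3 FPKM in siUPF1 (0.20, 95% interval -0.01 to 0.41). The H genes therefore had log2 fold changes on both sides of 0, with HNRNPH3 at -0.42 and HNRNPH2 at 0.20. Over the 21 hnRNP genes the median was -0.04, and 11 were below 0.

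No member of the PTB and TIA families, the 3′ splice site and snRNP genes or the other regulators passed the test in depletion. PTBP3, of the polypyrimidine tract binding family of splicing repressors, was at 24.3 and 25.7 FPKM in siControl and at 23.5 and 18.2 FPKM in siUPF1 (log2 fold change -0.26, 95% interval -0.57 to 0.05). Its relative PTBP1 was at 0.01 on the same scale, but the values were alike, -0.17 for both genes, once the trend with GC content and length was removed. TIA1, which promotes use of weak 5′ splice sites, had a log2 fold change of -0.18. U2AF1, the subunit of U2AF that contacts the AG at the 3′ splice site, was at 88.1 and 93.0 FPKM in siControl and at 95.0 and 98.1 FPKM in siUPF1 (0.09, 95% interval -0.12 to 0.31). SFPQ, a paraspeckle protein, had a log2 fold change of 0.11. Over the 61 members the median log2 fold change was -0.04, against 0.06 for all genes. It was -0.02 against -0.00 with the trend of GC content and length removed, and 0.01 against 0.07 without siControl replicate 2. Of these members, 50 had a log2 fold change within 0.2 of 0, and in 52 the 95% interval lay within 0.5 of 0.

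The pseudogene HNRNPA3P6 was the only member called higher in depletion. It was at 5.87 and 5.38 FPKM in siControl and at 6.98 and 8.75 FPKM in siUPF1 (log2 fold change 0.41, SE 0.121, limma adjusted p = 0.141), and did not pass without siControl replicate 2 (limma adjusted p = 0.432). Its presumed parent HNRNPA3 was at 97.2 and 110 FPKM in siControl and at 111 and 110 FPKM in siUPF1. HNRNPA1P4 had the lowest value among pseudogenes at -0.23, and the readthrough gene HNRNPUL2-BSCL2, which shares sequence with HNRNPUL2, was at 0.21. By groups alone, both siUPF1 libraries lay above both siControl libraries in 10 of the 61 members and below them in 15, against 37.5% and 18.5% of all genes.

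**Figure D2:**
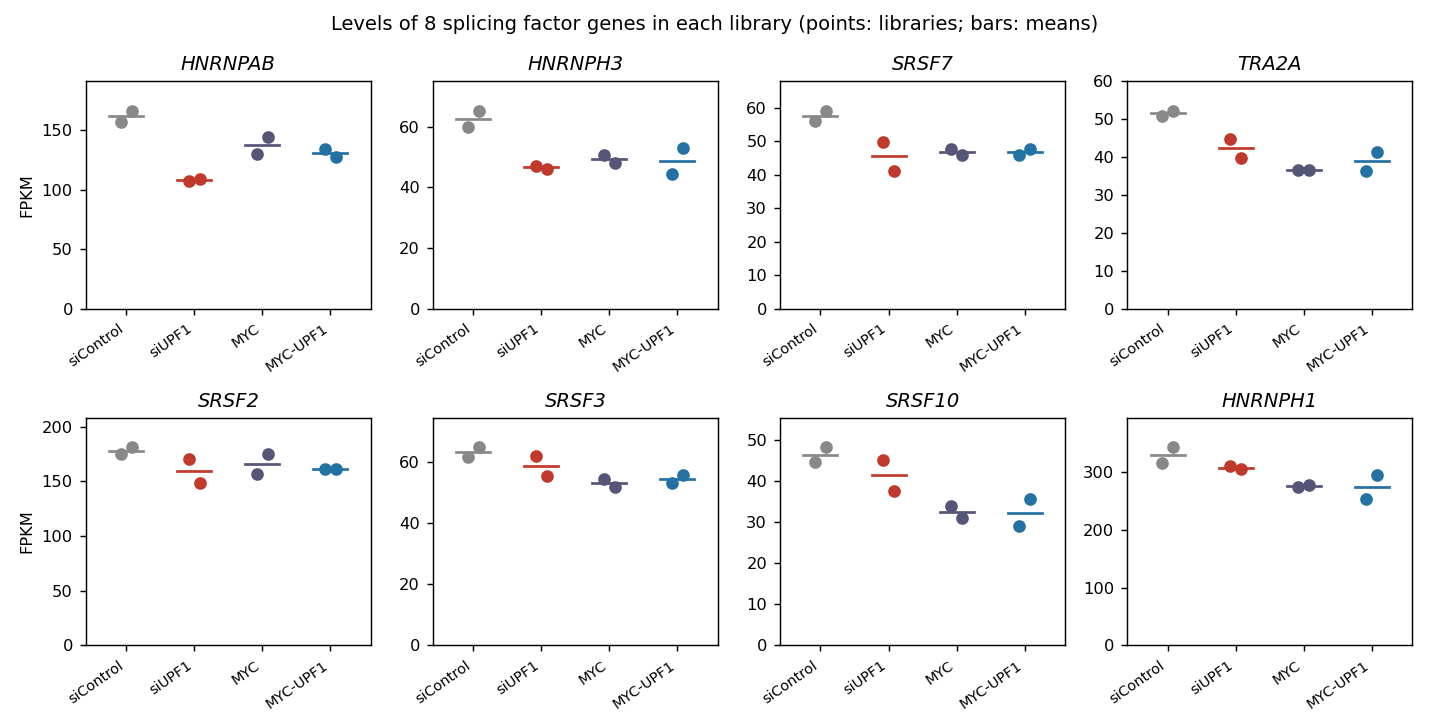
FPKM of 8 splicing factor genes in each library (points) with the mean of each group of 2 libraries (bars), on axes that start at 0. HNRNPAB, HNRNPH3, SRSF7, TRA2A, SRSF2 and HNRNPH1 have their highest mean in siControl and show no overlap between siControl and siUPF1. SRSF10 and HNRNPH1 are lower in the MYC and MYC-UPF1 libraries than in the siRNA libraries.

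With UPF1 overexpressed, no member was called at an unadjusted limma p of 0.05 (0 of 61). Of all 13251 genes tested, 1.43% were called (0.619% higher and 0.807% lower), so a count of 0 is near the share of all genes. At an adjusted p of 0.05 the share of all genes was 0.00755%, which is UPF1 itself. HNRNPAB was at 130 and 145 FPKM with MYC and at 135 and 128 FPKM with MYC-UPF1 (log2 fold change -0.07, 95% interval -0.25 to 0.11). SRSF7 was at 47.8 and 45.8 FPKM with MYC and at 45.9 and 47.7 FPKM with MYC-UPF1 (95% interval of the log2 fold change -0.19 to 0.19). In both genes the groups overlapped.

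The markers of the group were also at similar values with the vector and with UPF1. SRSF2 was at 157 and 175 FPKM with MYC and at 162 and 161 FPKM with MYC-UPF1 (log2 fold change -0.04, 95% interval -0.21 to 0.14). SRSF3 was at 54.4 and 51.7 FPKM with MYC and at 53.1 and 55.6 FPKM with MYC-UPF1 (0.04, 95% interval -0.15 to 0.22). TRA2A was at 36.7 and 36.5 FPKM with MYC and at 36.5 and 41.3 FPKM with MYC-UPF1 (0.08, 95% interval -0.13 to 0.29). The groups overlapped in all of these genes. HNRNPH1 was at 274 and 277 FPKM with MYC and at 254 and 295 FPKM with MYC-UPF1 (-0.01, 95% interval -0.19 to 0.18).

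Among the 48 genes the log2 fold change ran from -0.10 in HNRNPD, which binds AU-rich elements and promotes mRNA decay, to 0.18 in CLK1. CLK1 was at 16.9 and 15.7 FPKM with MYC and at 16.4 and 21.0 FPKM with MYC-UPF1, and the groups overlapped. By role, the extremes were 0.15 for HNRNPLL, -0.06 for SRSF9, -0.10 for PTBP2, 0.04 for TIAL1, 0.05 for RBM39 and -0.10 for U2AF2. The pseudogenes ran from -0.24 in HNRNPA1P77, which was between 0.365 and 0.806 FPKM, to 0.20 in HNRNPA1P12. The median over the 48 genes was -0.01, as it was over all genes, and the 95% interval lay within 0.5 of 0 in all 61 members. Both MYC-UPF1 libraries lay above both MYC libraries in 5 members and below them in 2, against 8.88% and 11.8% of all genes.

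In the plasmid libraries, replicates with different numbers were alike. MYC replicate 1 and MYC-UPF1 replicate 2 were both above the other pair in 31 of 61 members (50.8%), against 28.0% of all genes, and both below it in 13 (21.3%), against 32.5% of all genes. SRSF10 was an example, at 33.9 and 35.6 FPKM in those libraries and at 30.9 FPKM in MYC replicate 2 and 29.0 FPKM in MYC-UPF1 replicate 1. The part of this crossing in the result was not tested beyond the crossed pairing given with the processing alternatives.

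**Figure D3:**
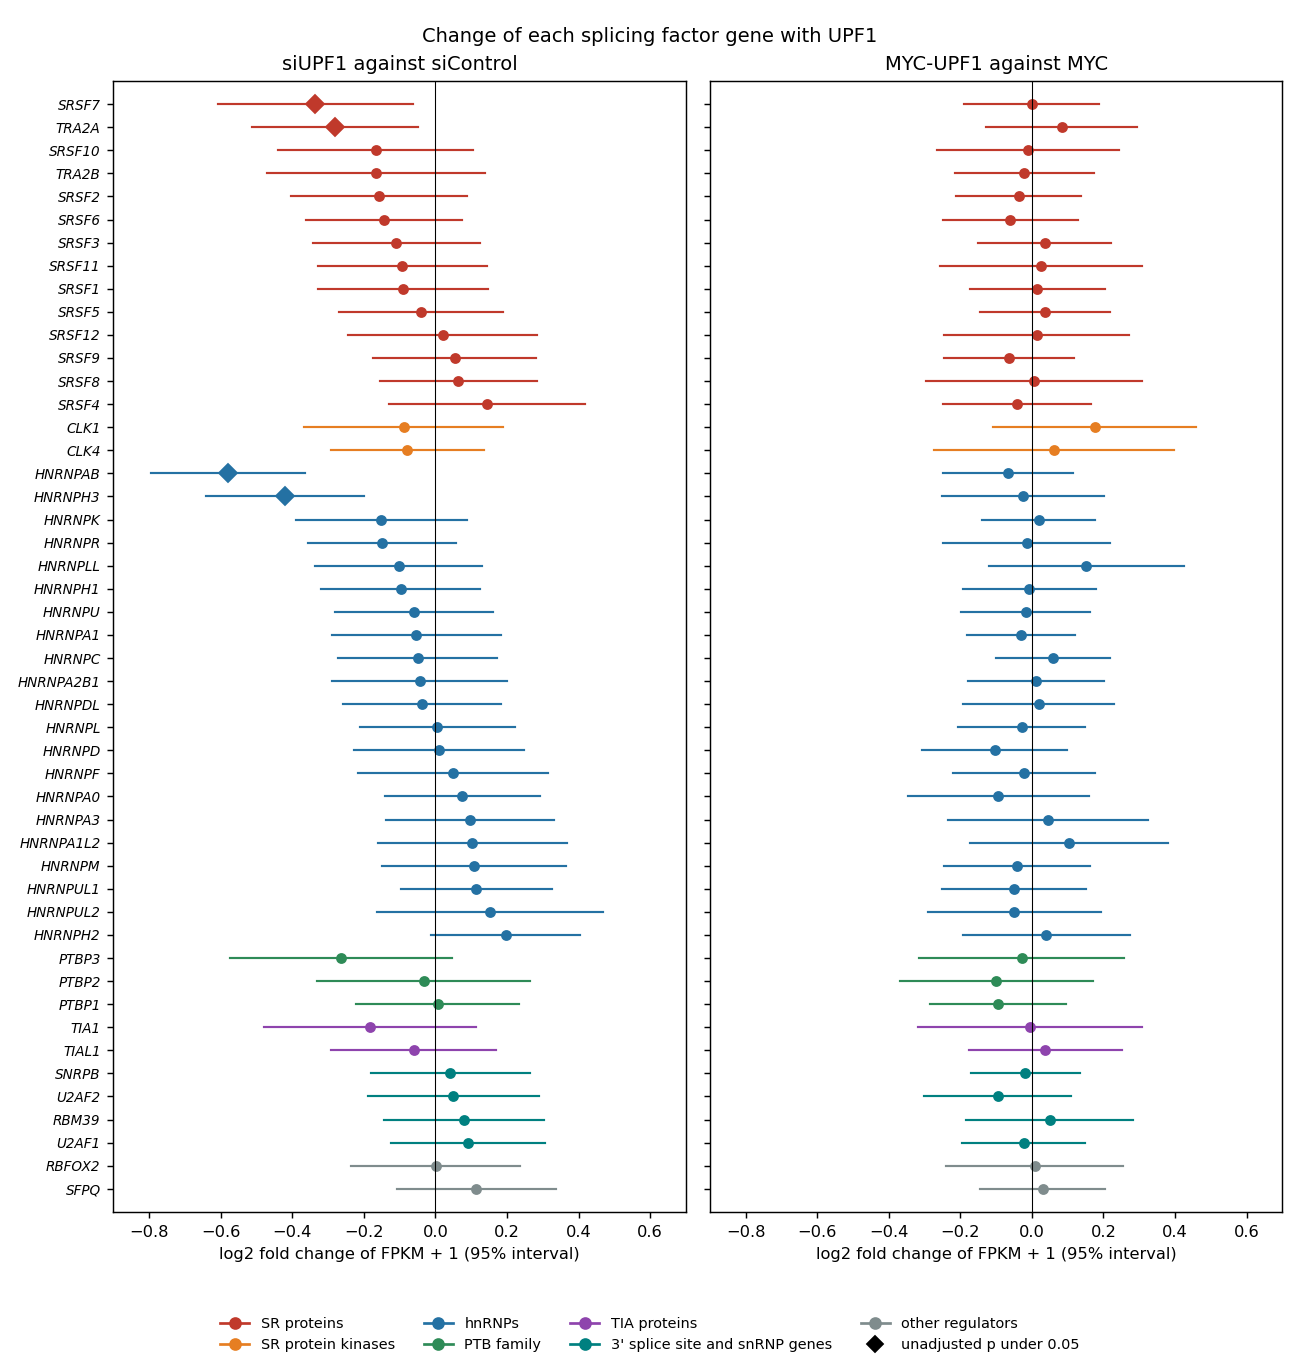
Log2 fold change of FPKM + 1 with its 95% interval (limma, 2 libraries per group) for 48 splicing factor genes, coloured by role, for siUPF1 against siControl (left) and MYC-UPF1 against MYC (right). The 4 diamonds, at an unadjusted p under 0.05, are SRSF7, TRA2A, HNRNPAB and HNRNPH3 in depletion, and the right panel has none.

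The change with depletion and the change with overexpression were compared in a fit over all 8 libraries. At an unadjusted p of 0.05, 6 of the 61 members differed, against 15.2% of all 13412 genes. None did after adjustment, against 0.0224% of all genes. HNRNPAB did with the trend of GC content and length removed (limma adjusted p = 0.0106), when 0.95% of all genes did. The difference, depletion minus overexpression, was -0.51 in HNRNPAB (SE 0.118, limma adjusted p = 0.152) and -0.39 in HNRNPH3 (SE 0.141, limma adjusted p = 0.246). It was -0.36 in TRA2A (limma adjusted p = 0.253) and -0.34 in SRSF7 (limma adjusted p = 0.307). The other members were the pseudogenes HNRNPA1P4 and HNRNPA1P77. With 1 library left out, the difference in HNRNPA1P77 was 0.32 to 0.87. The count of 6 was 3 without siControl replicate 1, siUPF1 replicate 2, MYC replicate 2 or MYC-UPF1 replicate 2. HNRNPAB passed the unadjusted threshold in every alternative tried.

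A larger and broader contrast than either treatment separated the siRNA libraries from the plasmid libraries, a contrast in which the kind of transfection, its reagents and any other difference between the experiments cannot be told apart. It is given as a description. In the controls alone, both MYC libraries lay below both siControl libraries in 36 of the 61 members and above in 4, against 41.2% and 25.7% of all 13412 genes. The median log2 difference was -0.18 over the members and -0.06 over all genes. The SR protein genes had 11 of 14 lower, none higher, and a median of -0.25.

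With all libraries, the 4 plasmid libraries lay below the 4 siRNA libraries in 18 members and above in 1, against 21.4% and 6.96% of all genes. SRSF10, a splicing repressor when dephosphorylated, was at 44.7, 48.1, 45.2 and 37.6 FPKM in the siRNA libraries and at 33.9, 30.9, 29.0 and 35.6 FPKM in the plasmid libraries. SRSF6, SRSF11, SRSF4, SRSF8 and SRSF12 were arranged in the same way, as were HNRNPH1, HNRNPDL, HNRNPU, HNRNPC, PTBP2, TIAL1, CLK4, RBM39 and U2AF1. SRSF6 had means of 66.3 ± 4.48 FPKM (SD, n = 4) with siRNA and 52.2 ± 2.10 FPKM (SD, n = 4) with plasmid, and HNRNPH1 had means of 319 ± 16.6 and 275 ± 16.9 FPKM (SD, n = 4). Each n = 4 here pools a treated group with its control, so the SD includes any difference between them. RBFOX2, which binds GCAUG and regulates exons of muscle, brain and epithelial genes, was the member higher in all plasmid libraries, at 10.9 ± 0.490 FPKM against 9.46 ± 0.511 FPKM (SD, n = 4). The levels in siUPF1 of SRSF7, TRA2A and HNRNPH3 thus lay at or nearer to those of MYC than siControl did, and of the 4 genes called, HNRNPAB was the gene lower in siUPF1 than in every other library.

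Annotation gave a further description. An NMD transcript is annotated for all 14 SR protein genes and for 40 of the 48 genes (83.3%), against 48.4% of the 11489 protein-coding genes tested in depletion. The 8 genes without such a transcript included HNRNPAB and HNRNPH3, those with the largest falls, together with PTBP3, HNRNPA0, HNRNPA1L2, HNRNPF, HNRNPH2 and HNRNPUL2. SRSF7 has 6 annotated NMD transcripts of 12, and TRA2A has 2 of 12. With depletion, the median log2 fold change was -0.05 in the 40 genes with an NMD transcript and 0.06 in the 8 without, and 0.06 and 0.05 over all protein-coding genes. It was -0.06 in the 23 genes with a poison exon of the kind shown above and -0.04 in the other 25. Of the 40 genes with an NMD transcript, 0 were called higher in siUPF1 (16.0% of all genes) and 2 lower (5.51% of all genes). These shares of all genes differed with GC content. They were 3.92% higher and 9.86% lower under 45% GC, and 23.7% and 2.79% at or over 45% GC. Of the 48 genes, 30 were under 45% GC. The part of GC content in the counts of these genes was not tested. Whether the share of poison exon transcripts differed was not measured at this level.

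Base composition of the transcript moved with the change in depletion. The 48 genes had a median GC content of 42.0%, against 47.9% for protein-coding genes. Across genes, which are not independent replicates and share the same libraries, Spearman's rho between GC content and the depletion log2 fold change was 0.51 over the 48 genes and 0.55 over 12833 genes. In overexpression it was -0.42 over the 48 genes and -0.44 over 12590 genes. Of the 30 members under 45% GC, 6 had a depletion log2 fold change above 0, with a median of -0.09 (all genes of that class -0.06). Of the 18 at or over 45% GC, 15 did, with a median of 0.05 (all genes 0.13). HNRNPH3, SRSF7 and TRA2A had 39.9%, 40.0% and 41.0% GC and HNRNPAB had 54.1% GC. With the trend of each library with GC content and length removed, the log2 fold change of HNRNPAB was -0.69.

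**Figure D4:**
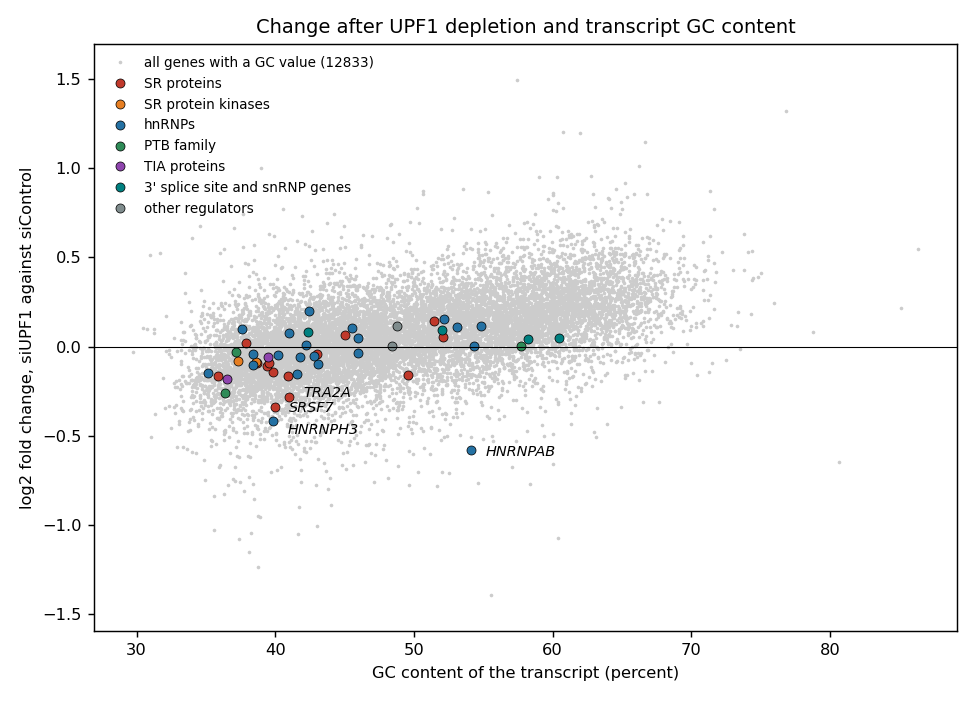
Log2 fold change in depletion (vertical axis) against the GC content of the transcript in percent (horizontal axis) for 12833 genes (grey points) and 48 splicing factor genes (coloured by role). Most coloured points follow the rise of the grey cloud with GC content, and HNRNPAB, at 54.1% GC, lies at the lower edge of the cloud.

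The rest of the splicing machinery was described from a list of 109 genes (snRNP proteins, SR-related proteins and kinases, and other RNA-binding regulators), of which 107 were in the tables. In depletion 6 of 106 tested passed an unadjusted limma p of 0.05, 1 higher and 5 lower, against 16.0% and 5.51% of all genes, with a median log2 fold change of 0.00. MBNL3, of the muscleblind family of splicing regulators, was at 32.3 and 32.7 FPKM in siControl and at 21.8 and 16.6 FPKM in siUPF1 (-0.74, SE 0.133, limma adjusted p = 0.0793). RBM6 was the gene called higher (0.35), and ZRANB2 (-0.32), SF3B6 (-0.37) and QKI (-0.29) were among those called lower. The count was 36 without siUPF1 replicate 1 (43.7% of all genes) and 2 without siControl replicate 2 (12.6%). In overexpression 0 of 107 passed, against 1.43% of all genes, and the gene with the smallest limma p was PUF60 (log2 fold change -0.18), followed by SF3B6 (0.15), RALY (-0.16), PQBP1 (-0.11) and SNRPA1 (0.11).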

How the data were processed

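The authors trimmed reads with Trimmomatic 0.38, aligned them to hg19 with HISAT2 2.1.0 and quantified NCBI-annotated genes with StringTie 1.3.4d, per the paper's methods and the submitters' processing notes. They deposited FPKM values per gene in 8 libraries from a stranded mRNA kit. The tables of the series and the files of single libraries held the same values (0 differing). Whole reads could not be recovered from the low values (no ratio between libraries was shared by over 1.06% of 284 low genes). No model of counts was therefore run, the depth is unknown, and no counting interval is given.

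Each treated group was compared with its control on log2(FPKM + 1) with limma 3.58.1 (lmFit, eBayes with trend, R 4.3.3), for genes with a mean of at least 0.5 FPKM, with p-values adjusted by Benjamini-Hochberg over all genes tested. An unadjusted p of 0.05 was used beside the adjusted p, since the paper names no adjustment. An exact permutation test of 2 against 2 libraries has a smallest two-sided p of 0.333. The difference between comparisons was tested as an interaction over 8 libraries. The fit was tested on simulated data. Coordinates, NMD transcripts, exon sequences, length and GC content came from GENCODE release 44 on GRCh37, in which 75 of 77 members and 92.2% of all genes were found.

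Named with values were SRSF2, SRSF3, TRA2A and HNRNPH1, members with a limma p under 0.05, the largest rise and fall in each role, the 3 highest and 3 lowest members, and the top 5 other splicing genes by p, of which 1 is not reported here. Genes of the contrast between siRNA and plasmid libraries, parents and relatives, and genes without NMD transcripts were chosen for naming once their values were known. The members and lists were chosen with earlier results of these data known. Alternatives were a pseudocount of 0.1, no minimum or 5 FPKM, quantile normalization, median centring, a fit of all 8 libraries, a replicate block, eBayes without trend, a loess correction (span 0.5) for GC content and transcript length, and each library left out. Tables and figures were made with pandas 2.3.3 and matplotlib 3.10.9 under Python 3.11.15. Protein sequences and transcript-level values were not analysed here.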

Additional observations from a re-analysis of the deposited data

Results flagged for a closer look

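By the interaction term in limma at an unadjusted p of 0.05, the change with UPF1 depletion differed from that with overexpression in 6 of 61 members. This was 9.84% of the members, against 15.2% of all 13412 genes. None differed after adjustment, against 0.0224% of all genes. The difference (depletion minus overexpression, log2) was -0.51 in HNRNPAB, -0.39 in HNRNPH3, -0.36 in TRA2A and -0.34 in SRSF7, all of which were lower in both siUPF1 libraries than in both siControl libraries. It was -0.36 in the pseudogene HNRNPA1P4 and 0.60 in the pseudogene HNRNPA1P77, which did not pass the threshold in either comparison alone. HNRNPA1P77 was at 0.574 and 0.665 FPKM in siControl, 0.715 and 1.52 FPKM in siUPF1, 0.806 and 0.648 FPKM with MYC, and 0.365 and 0.570 FPKM with MYC-UPF1.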

How the results depend on the processing

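At an unadjusted limma p of 0.05, the count of members called in depletion was 5, and 9 with quantile normalization, 10 with median centring and 9 with the trend of GC content and length removed, also with the replicate block added (9). These are 14.8% to 16.4% of the members tested, while 20.8% to 22.6% of all genes were called under these settings. Leaving out 1 library gave 2 to 19, and in each such fit the share of members called was below that of all genes, which was 10.7% to 43.7%. The count of other splicing genes in depletion was 6, and 10 with median centring, 12 without the GC and length trend, 10 with the replicate block added to that, and 2 to 36 with 1 library left out. In overexpression, where 0 members passed, 1 passed with no FPKM minimum (2.4% of all genes), HNRNPA1P77. With 1 library left out, the log2 fold change of HNRNPA1P77 was -0.34 to -0.14. A crossed pairing chosen after seeing the data gave 4 (CLK1, HNRNPA3P3, HNRNPA1P12 and HNRNPA1P77), when 9.26% of all genes passed. For the other splicing genes 0 became 2 without the GC and length trend (3.34% of all genes), 10 with the crossed pairing and 0 to 12 with 1 library left out, the 12 (11.2%, against 5.85% of all genes) being without MYC replicate 1. The count of 6 members that differed between the comparisons was 3 with the replicate block (10.4% of all genes, against 15.2% without it) and 3 to 9 with 1 library left out (7.94% to 25.2% of all genes). U2AF2 in depletion turned from 0.05 to -0.16 without the GC and length trend. The cause of these changes was not tested. A group left with 1 library was taken to vary like the others. The labels do not say whether same-numbered libraries were made together. Deviations of same-numbered libraries correlated at -0.129 across genes in depletion and -0.569 in overexpression. The replicate block gave 6 members in depletion (19.1% of all genes) and 0 in overexpression (1.28%), and the crossed pairing 6 in depletion (22.9%). Adjusted calls among members in depletion were 0, and 2 with a minimum of 5 FPKM (HNRNPAB and HNRNPH3), when 4% of all genes passed. Adjusted calls were 1 with all 8 libraries in a fit (2.72% of all genes) or the GC and length trend removed (2.05%), HNRNPAB each time. They were 0 to 14 with 1 library left out, the 14 being without siUPF1 replicate 1, when 33.6% of all genes passed, and 2 without siUPF1 replicate 2, when 9.44% did. The medians of the SR protein and hnRNP genes in depletion stayed below 0 under each scaling. In overexpression the median of the SR protein genes turned from 0.00 to -0.02 without the GC and length trend, and that of the hnRNP genes from -0.02 to 0.02 with quantile normalization.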
